A study of Mus musculus with 12 samples.

Results

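Hox paralog groups 11 to 13 are the genes at the 5′ end of the Hox clusters. The 9 genes described were Hoxa11, Hoxc11, Hoxd11, Hoxc12, Hoxd12, Hoxa13, Hoxb13, Hoxc13 and Hoxd13, of 39 Hox genes and 21938 protein-coding genes in all. They were chosen by name, and not by any measured value. For each gene, accessible domains were collected over the transcription start site (TSS) ± 1 kb, over the gene body, and over the stretch up to the next Hox gene of lower number. These parts made up 170 kb on 4 chromosomes, and 84 of the 482514 domains in the 6 lists overlapped them.

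Accessible chromatin was profiled by ATAC-seq, in which a transposase cuts DNA that nucleosomes leave open. Mouse embryonic stem cells were differentiated through embryoid bodies (EBs) into spinal motor neurons. The patterning signals were 1 µM retinoic acid (RA) and 0.5 µM SAG, an agonist of Hedgehog signalling. The 12 samples fell into 6 groups with 2 samples each, and 1 list of domains stood for both samples of a group. EBs and progenitors at day 2 of RA and SAG were of the parental line Ainv15(iCre). The other 4 groups were at day 4 of RA and SAG. In iHoxc6, iHoxc9 and iHoxc10, a Flag-tagged Hoxc6, Hoxc9 or Hoxc10 transgene was induced with doxycycline (Dox, 3 µg/mL) for 48 h. The no Dox group was the Hoxc6 transgene line left without Dox. The transgene was carried as a single copy at the Hprt locus in every line used at day 4, and none of the 9 genes was a transgene in any group.

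The lists gave only the start and end of each domain. No spread between replicates, no p-value and no depth could therefore be had, and each comparison below is a description of 6 lists. A gene without a domain had no domain called, which does not show that its chromatin was closed. In these bulk samples, fewer cells with an open site and less opening in each cell cannot be told apart. The lists held 56232 to 94875 domains and covered 17.8 to 29.7 Mb, with the smallest covered length in iHoxc9 and the largest in no Dox. The no Dox list had 3 more columns than the others and came from another set of sample records. Its possibly different calling settings cannot be told apart from the absence of Dox, and against iHoxc9 and iHoxc10 neither can its cell line. In the same way, parental line and stage cannot be told apart between progenitors and day 4.

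Hox genes encode homeodomain transcription factors that give cells their position along the body axis. In each cluster, genes at the 3′ end are switched on early and anteriorly, and genes at the 5′ end late and posteriorly. Groups 11 to 13 descend from an AbdB-like ancestor and act at the tail end of the trunk, in the limbs, and in the urogenital tract. In cells that do not use them they are usually kept silent by Polycomb complexes. RA patterns stem cells to hindbrain and cervical identities, in which the 5′ genes are normally off.

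Marker genes were read in each list as a check of the labels. Pou5f1 and Nanog, factors of the pluripotent state, had promoter domains of 744 and 623 covered bp in EBs and none in the other 5 lists. Of the other 2 pluripotency genes read, Zfp42 had 379 bp in EBs, 181 bp in progenitors and 0 at day 4, and Esrrb had none in any list, EBs included. The promoter of Olig2, which marks motor neuron progenitors, had 232 covered bp in EBs, 978 in progenitors and 541 to 1366 in the day 4 lists. The 5 motor neuron markers all had a promoter domain in every list but iHoxc9, which held 4 of the 5. Of 3 mesoderm and tail bud markers, cells that do use posterior Hox genes, T (Brachyury) had 1015 covered bp in EBs, 97 in progenitors and 0 at day 4. Tbx6 was covered in all 6 lists and Meox1 in none. The part of such cells in the values below was not tested.

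Over the posterior Hox stretches, accessible length was largest in EBs and smallest in the induced lists. The covered length was 5451 bp in EBs, 4313 bp in progenitors and 3071 bp in no Dox. For the induced lists it was 2346 bp with Hoxc6, 567 bp with Hoxc9 and 1685 bp with Hoxc10. This amounted to 3.2%, 2.53%, 1.8%, 1.38%, 0.333% and 0.988% of the length. The number of domains was 24, 18, 14, 14, 6 and 8 in the same order. The order of the lists by covered length therefore ran from EBs down to iHoxc9, with each day 4 list below progenitors.

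Since the lists cover different lengths of the genome, each value was also set against the covered length of its own list. Per Mb covered by the list, 236 bp lay in the posterior Hox stretches in EBs, 168 bp in progenitors, 103 bp in no Dox, and 94.7, 31.9 and 83.7 bp in the iHoxc6, iHoxc9 and iHoxc10 lists. The order of the lists was the same on this scale. The gap between no Dox and iHoxc6 was small, and without replicate error it cannot be said whether these lists differ. Most domains were narrow, with median widths of 81.0 to 143.5 bp, and 0 to 9 domains per list were under 50 bp wide. Narrow domains were general, since the whole lists had median widths of 129 to 212.5 bp. In progenitors the median of 143.5 bp was above the 138 bp of the whole list.

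**Figure D1:**
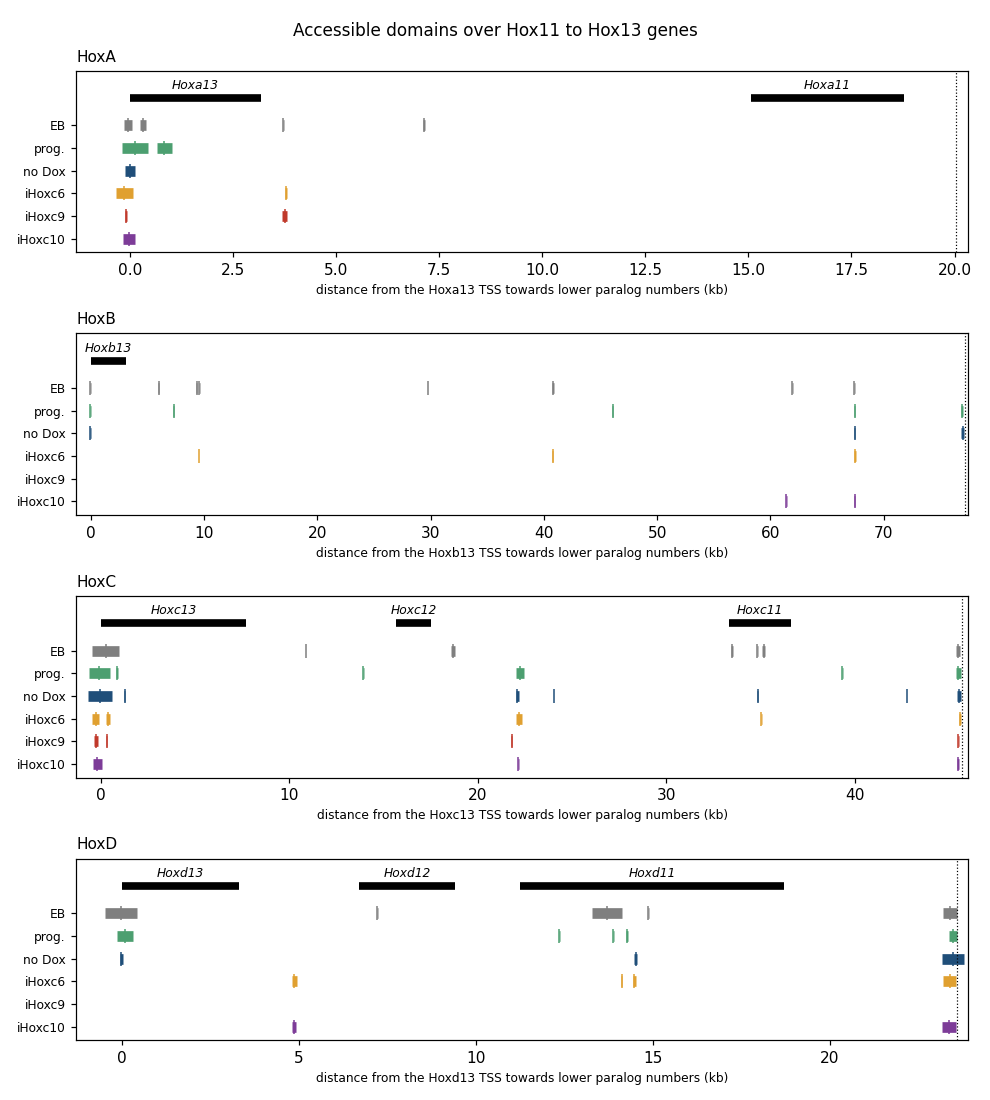
Position of every domain (coloured bars, 1 row per list) along the 4 clusters, in kb from the TSS of the group 13 gene, with gene bodies in black and the start of the next Hox gene as a dotted line. Domains cluster at the starts of Hoxc13, Hoxa13 and Hoxd13 and just before Hoxc10 and Hoxd10, while iHoxc9 has none in HoxB or HoxD.

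The 4 clusters differed in how much was covered. HoxD was the most covered in EBs, with 9.17% of its 24.6 kb, followed by 3.38% in progenitors, 2.39% in no Dox, and 2.6%, 0% and 2.0% in iHoxc6, iHoxc9 and iHoxc10. HoxC had 4.62%, 4.18%, 3.78%, 2.13%, 0.908% and 1.51% of its 46.7 kb covered. HoxA was highest in progenitors instead, at 4.67% of 21 kb against 1.86% in EBs and 0.68% to 2.15% at day 4. HoxB, most of which is the long gap between Hoxb13 and Hoxb9, never exceeded 0.827% of its 78.1 kb.

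Promoters, taken as TSS ± 1 kb, showed which genes carried the accessible length. In EBs 6 of the 9 genes had a promoter domain, beside 65.6% of all protein-coding genes. In progenitors 4 of 9 had one, beside 63.0%, and in no Dox 4 of 9, beside 62.1%. Only Hoxa13 and Hoxc13, 2 of 9, had one in iHoxc6, iHoxc9 and iHoxc10, where the share of all genes was 62.3%, 59.3% and 59.0%. A promoter domain in all 6 lists was found for 2 of 9, beside 56.1%, and in no list for 3 of 9 (Hoxa11, Hoxd11 and Hoxc12), beside 30.3%. The EB count lay near the share of all genes, and the counts in the 3 induced lists lay below it.

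**Figure D2:**
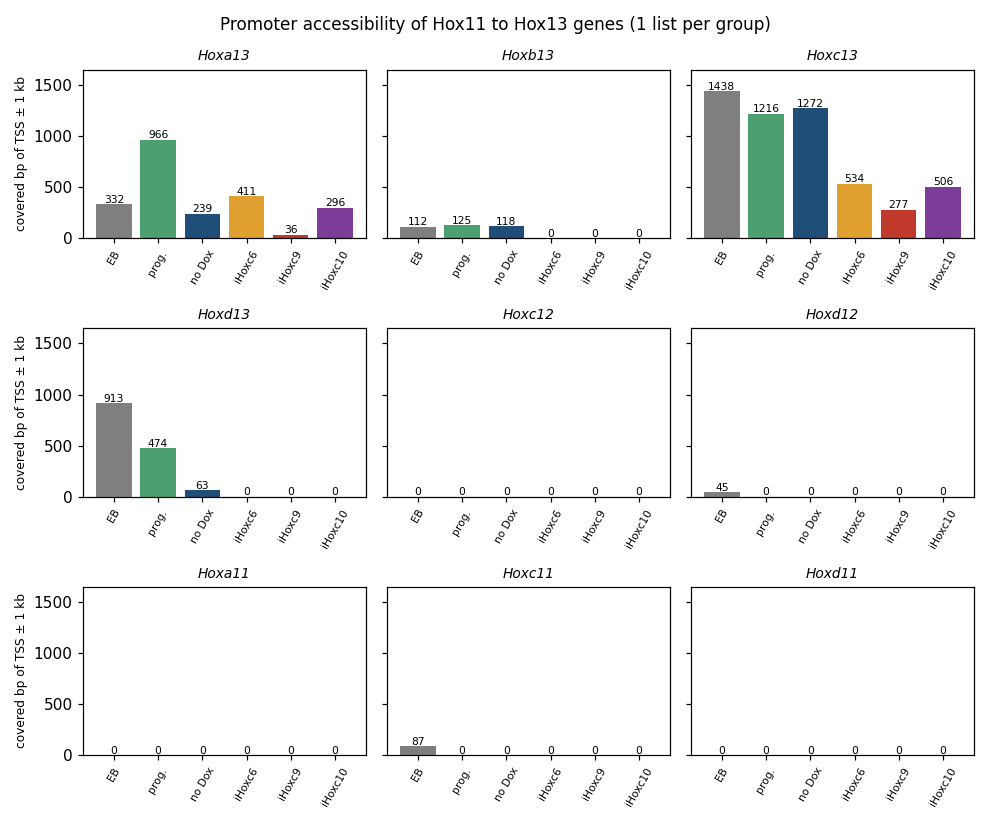
Covered bp of TSS ± 1 kb (bars, on one linear scale starting at 0) for each of the 9 genes in each of the 6 lists. Bars have no error because each group has 1 list, and values run from 0 to 1438 bp, the latter for Hoxc13 in EBs.

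Between EBs and progenitors, Hoxc11 and Hoxd12 went from a domain to none, which was 2 of 6 genes against 6.89% of all genes. Those EB domains were 87 and 45 bp wide. With domains of at least 150 bp, 3 genes had one in EBs and 3 in progenitors. Between progenitors and no Dox, 0 of 4 lost one, against 4.41%. Between no Dox and each induced list, Hoxb13 and Hoxd13 had none left. This was 2 of 4 in each case, beside 3.39% of all genes for iHoxc6, 6.34% for iHoxc9 and 6.32% for iHoxc10. The 3 induced lists were set against the same no Dox list, so these counts are not independent. Of genes with a promoter domain in EBs, progenitors and no Dox, 76 of 12975, or 0.586%, had none in any induced list, and Hoxb13 and Hoxd13 were among them. Gains were 0 of 3 genes from EBs to progenitors, beside 5.61% of all genes, and 0 of 5 from progenitors to no Dox, beside 4.98%. From no Dox they were 0 of 5 for each of iHoxc6, iHoxc9 and iHoxc10, beside 6.19%, 3.00% and 2.24%. With so few genes, a count of 0 lay near these shares.

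Group 13 genes are the last of each cluster and mark the end of the body axis. The widest domain of each list lay at the promoter of Hoxc13 or, in iHoxc6, of Hoxa13, whereas Hoxb13 held only narrow domains. Hoxc13, which is needed for hair and nail formation, lies on the plus strand of chromosome 15 with its TSS at 102921103 (GRCm38). Its promoter had 1438 covered bp in EBs, 1216 in progenitors and 1272 in no Dox. It had 534 with Hoxc6 induced, 277 with Hoxc9 and 506 with Hoxc10. The first 3 lists lay between 1216 and 1438 bp and the induced lists between 277 and 534 bp. How many of all promoters separate these lists in the same way was not counted. Relative to no Dox, the covered length was 0.42 for iHoxc6, 0.218 for iHoxc9 and 0.398 for iHoxc10. The median over all promoters with a no Dox domain was 0.842, 0.684 and 0.771, so that a smaller covered length was also general to these lists.

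Among all promoters with a domain in the same list, Hoxc13 stood at percentile 96.2 in EBs, 78.7 in progenitors and 71.9 in no Dox. In iHoxc6, iHoxc9 and iHoxc10 it stood at 26.7, 15.8 and 25.9. The domain reached over the TSS and into the first coding exon in EBs, progenitors and no Dox. In iHoxc6 and iHoxc9 it was split into 2 domains, 1 on either side of the TSS. A 220 bp core upstream of the TSS, at chr15:102920752-102920971, was shared by all 6 lists.

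Hoxd13 patterns the digits and the genital tubercle together with Hoxa13. Its TSS is at 74668310 on the plus strand of chromosome 2. The promoter had 913 covered bp in EBs, 474 in progenitors, 63 in no Dox, and none in iHoxc6, iHoxc9 or iHoxc10. The covered length was thus shorter at each later stage, from percentile 70.8 of promoters with a domain in EBs to 20.6 in progenitors and 3.55 in no Dox. The no Dox domain spanned the TSS but was only 63 bp wide.

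Hoxb13 is the one group 13 gene of HoxB, lies far from its neighbours, and is best known for its role in the prostate and tail. A single narrow domain ended at its TSS (96194316 on the plus strand of chromosome 11). It was 112 bp wide in EBs, 125 bp in progenitors and 118 bp in no Dox, and no domain was called in the 3 induced lists. These widths placed Hoxb13 at percentiles 5.55, 5.76 and 5.36 of promoters with a domain, so it was near the low end in every list that held it. Neither its promoter nor the no Dox domain of Hoxd13 was retained when only domains of at least 150 bp were used.

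Hoxa13, needed for digits, the genital tubercle and the hindgut, had a promoter domain in all 6 lists. Its TSS is at 52260880 on the minus strand of chromosome 6. The covered length was 332 bp in EBs, 966 bp in progenitors and 239 bp in no Dox, against 411 bp, 36 bp and 296 bp in iHoxc6, iHoxc9 and iHoxc10. Progenitors stood apart with the largest value, and iHoxc6 and iHoxc10 were above no Dox while iHoxc9 was below it. Relative to no Dox the values were 1.72, 0.151 and 1.24. With promoters set at the 5′ ends of the genes, Hoxa13 was the one gene of the 9 with a larger value in an induced list than in no Dox, and at its coding start Hoxd11 also was.

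**Figure D3:**
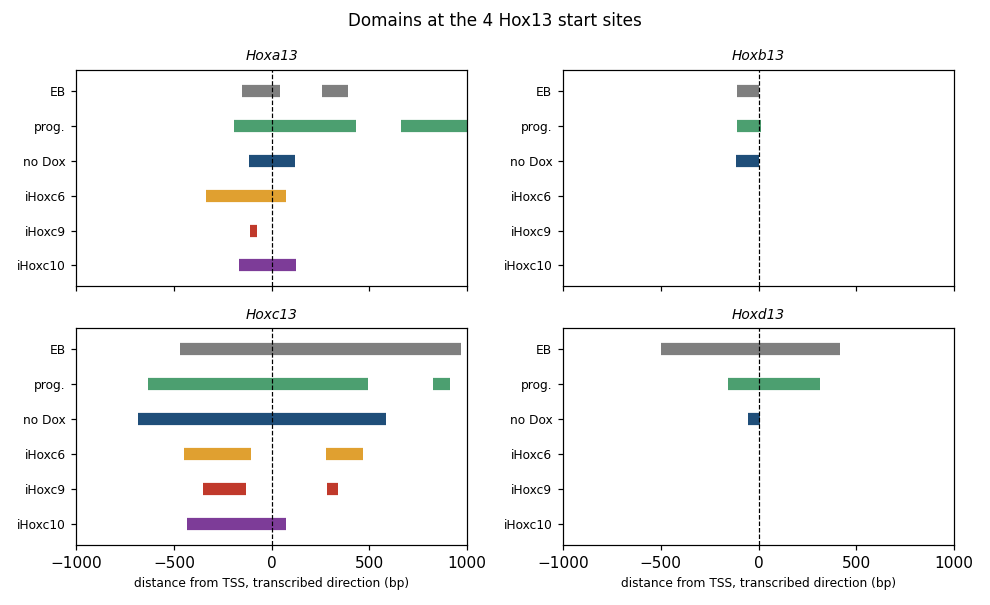
Domains (bars) within 1000 bp of the TSS of the 4 group 13 genes, in bp along the direction of transcription, with 1 row per list and the TSS as a dashed line. Hoxc13 narrows from 1438 bp in EBs to 277 bp in iHoxc9, Hoxd13 from 913 to 63 bp in no Dox and to none, and Hoxa13 keeps a domain in every list.

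In covered length, 3 of the 4 genes with a no Dox promoter domain had less than 50% of the no Dox value in iHoxc6, beside 9.52% of all such genes. In iHoxc9 all 4 did, beside 25.2%, and in iHoxc10 3 of 4, beside 17.1%. Hoxb13, Hoxc13 and Hoxd13 were under 50% in all 3 induced lists, beside 5.95% of genes. For Hoxb13 and Hoxd13 this rests on no Dox domains of 118 and 63 bp. Between EBs and progenitors 2 of 6 were under 50%, beside 11.8%, and between progenitors and no Dox 2 of 4, Hoxa13 and Hoxd13, beside 7.96%.

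The 250 bases before the starts of Hoxa13, whose domain was called in every list, and of Hoxd13, whose domain was called in the first 3 lists only, are printed from RefSeq (GRCm38) for comparison. The table used held promoters of 5 of the 9 genes, Hoxa11, Hoxd11, Hoxd12, Hoxa13 and Hoxd13. Capitals mark matches on either strand to TAAT, a core of homeodomain sites, to TTTAT, a core of posterior Hox sites, or to AGGNGGC, the common part of the site of the insulator protein CTCF.
Hoxa13, chr6:52260881-52261130, minus strand: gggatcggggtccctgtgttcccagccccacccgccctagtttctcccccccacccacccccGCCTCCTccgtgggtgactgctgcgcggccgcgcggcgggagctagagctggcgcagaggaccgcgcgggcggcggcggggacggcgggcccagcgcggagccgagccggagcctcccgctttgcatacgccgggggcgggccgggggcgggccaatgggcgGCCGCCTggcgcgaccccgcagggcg
Hoxd13, chr2:74667975-74668224, plus strand: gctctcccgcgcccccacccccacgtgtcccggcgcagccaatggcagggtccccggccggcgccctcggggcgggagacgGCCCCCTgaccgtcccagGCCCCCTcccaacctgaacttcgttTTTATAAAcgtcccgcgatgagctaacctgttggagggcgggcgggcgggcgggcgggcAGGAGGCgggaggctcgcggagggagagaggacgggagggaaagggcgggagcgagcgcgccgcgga
RefSeq starts Hoxd13 at 74668225, 85 bp before the GENCODE start used for the covered lengths, so the narrow no Dox domain lies outside the letters shown. Both sequences are rich in G and C, with 80.0% for Hoxa13 and 74.4% for Hoxd13. The Hoxa13 sequence holds 2 matches to AGGNGGC and none to TAAT or TTTAT. The Hoxd13 sequence holds 3 matches to AGGNGGC and 2 to TTTAT, which overlap each other. Of 27025 RefSeq promoters of this length, 24.6% hold AGGNGGC, 38.1% TTTAT and 55.3% TAAT. A match is a description of letters and not a site shown to be bound.

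Group 12 was the least covered. Hoxc12 (TSS at 102936757 on chromosome 15) had no domain within 1 kb of its TSS or in its gene body in any list. Hoxd12, whose TSS at 74675013 on chromosome 2 lies between those of Hoxd13 and Hoxd11, had a single 45 bp domain in its coding exon in EBs and none in the other 5 lists.

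Group 11 genes pattern the kidney and the lower part of the limb. Hoxa11 (TSS at 52245810, minus strand of chromosome 6) had no domain at its promoter, in its gene body or in its stretch towards Hoxa10 in any of the 6 lists. Its antisense transcript Hoxa11os also had no promoter domain in any list. Hoxc11 (TSS at 102954427, chromosome 15) had an 87 bp promoter domain in EBs and none elsewhere. Over its gene body 316 bp were covered in EBs, 35 bp in no Dox, 32 bp in iHoxc6 and 0 bp in the other 3 lists.

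Hoxd11 depended on which start was used. The 5′ end of the gene in GENCODE, 74679557 on chromosome 2, belongs to a non-coding transcript, and no list had a domain within 1 kb of it. Around the start of the coding transcript, at 74682323, 883 bp were covered in EBs, 72 in progenitors, 88 in no Dox, 113 in iHoxc6, and 0 in iHoxc9 and iHoxc10. EBs held by far the most, in a domain of 848 bp at chr2:74681597-74682444 that reached the coding start. With the coding start, the count of genes with a promoter domain became 7 in EBs, 5 in progenitors, 5 in no Dox and 3 in iHoxc6, and remained 2 in iHoxc9 and iHoxc10.

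The sequence before the coding start of Hoxd11, open in EBs, and that before Hoxa11, without a domain in any list, are given with the same marks.
Hoxd11, chr2:74682073-74682322, plus strand: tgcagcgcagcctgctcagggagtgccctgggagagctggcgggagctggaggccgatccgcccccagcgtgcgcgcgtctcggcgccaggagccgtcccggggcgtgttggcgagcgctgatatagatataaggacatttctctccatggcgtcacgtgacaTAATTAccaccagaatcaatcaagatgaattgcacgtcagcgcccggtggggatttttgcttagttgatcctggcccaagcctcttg
Hoxa11, chr6:52245811-52246060, minus strand: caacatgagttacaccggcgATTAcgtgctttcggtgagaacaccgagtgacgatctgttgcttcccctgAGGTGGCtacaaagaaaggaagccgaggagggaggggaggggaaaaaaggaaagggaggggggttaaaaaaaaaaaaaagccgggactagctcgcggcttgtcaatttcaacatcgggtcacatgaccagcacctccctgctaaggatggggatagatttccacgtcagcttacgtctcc
The Hoxd11 sequence holds 2 overlapping matches to TAAT, read on opposite strands of TAATTA, and none to AGGNGGC. The Hoxa11 sequence holds 1 match to TAAT and 1 to AGGNGGC.

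Base composition was read at the same promoters. Within TSS ± 1 kb, the share of G and C was 67.3% at Hoxa13, 62.1% at Hoxc13, 61.9% at Hoxd13 and 58.0% at Hoxb13, and 52.7% to 59.4% at the 5 genes of groups 11 and 12. The median over all genes was 51.2%. The 3 genes with the most covered promoters, Hoxa13, Hoxc13 and Hoxd13, thus had the highest shares. The ratio of observed to expected CpG was 0.859 at Hoxa13, 0.84 at Hoxd13 and 0.694 at Hoxc13. Hoxa11, with no domain, had 0.799, whereas Hoxb13, with a narrow domain in 3 lists, had 0.389, under the median of 0.474 over all genes. The part of base composition in the covered lengths was not tested.

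Gene bodies and the stretches between genes followed the promoters in part. Over the gene body of Hoxc13, 970 bp were covered in EBs, 585 in progenitors, 637 in no Dox, 191 in iHoxc6, 57 in iHoxc9 and 73 with Hoxc10 induced. The gene body of Hoxd13 had 416 bp in EBs, 316 bp in progenitors, 8 bp in no Dox and none in the induced lists. In the 74.0 kb stretch from Hoxb13 to Hoxb9, 534, 420, 362, 259, 0 and 192 bp were covered in EBs, progenitors, no Dox, iHoxc6, iHoxc9 and iHoxc10, in 7, 4, 2, 3, 0 and 2 domains. The 15.8 kb stretch from Hoxc12 to Hoxc11 had 169, 393, 166, 332, 42 and 66 bp. Progenitors and iHoxc6 were highest there, so this stretch did not share the order of the promoters. The stretch from Hoxd12 to Hoxd11 had no domain in any list.

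Overlapping domains of the 6 lists merged into 40 regions. Of these, 24 (60%) were held by 1 list, beside 63.7% of the 218489 regions made from the whole lists in the same way, 6 by 2 lists, 4 by 3, 1 by 4, 2 by 5 and 3 by all 6, the last being 7.5% beside 11.2%. EBs alone held 11 of the single-list regions, progenitors 7, no Dox 3, and each induced list 1. The EB share was 27.5% beside 21.1% of all regions, and that of progenitors 17.5% beside 12%. Induced lists held 4 regions (10.0%) that were absent from EBs, progenitors and no Dox, beside 21.3% of all regions. Another 25 (62.5%) were held by EBs, progenitors or no Dox and by no induced list, beside 48.1%. With 40 regions and 1 list per group these differences were not tested.

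Of the 3 regions held by all lists, 2 were the promoters of Hoxc13 and Hoxa13. The other lay at chr15:102966456-102966726, centred 205 bp before the TSS of Hoxc10, at the far end of the Hoxc11 stretch. It had 200 covered bp in EBs, 268 in progenitors, 199 in no Dox, and 97, 105 and 132 in iHoxc6, iHoxc9 and iHoxc10. A similar merged region held by 5 lists lay at the start of Hoxd10, at chr2:74691486-74692115. Only its no Dox domain reached over the TSS, and the domains of the other lists ended before it. There 416 bp were covered in EBs, 231 in progenitors, 630 in no Dox, and 388, 0 and 386 in iHoxc6, iHoxc9 and iHoxc10. These 2 regions belong to promoters of group 10 genes as much as to the stretches of group 11.

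The other regions held by 3 or more lists lay away from known Hox starts or were described above with Hoxb13, Hoxd13 and Hoxd11. In the long gap of HoxB, a region at chr11:96261652-96261825, 9718 bp before the TSS of Hoxb9 in an exon of the non-coding gene Gm53, had 165 covered bp in EBs, 162 in progenitors, 118 in no Dox, and 164, 0 and 128 in iHoxc6, iHoxc9 and iHoxc10. It was nearly even across the 5 lists that held it. Between Hoxc12 and Hoxc11, the intergenic region at chr15:102943132-102943524 lies near Hotair, a non-coding RNA gene of the HoxC cluster. It had no domain in EBs, 393 bp in progenitors, 139 in no Dox, and 332, 0 and 66 in iHoxc6, iHoxc9 and iHoxc10. This was the only region held by 3 or more lists that EBs lacked. In HoxA, an exon of the non-coding gene 9530018H14Rik 3.75 kb from the Hoxa13 TSS had 20 bp in EBs, 42 in iHoxc6 and 107 in iHoxc9. The EB and iHoxc6 domains there did not overlap each other and were joined only by the iHoxc9 domain.

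Of the 4 regions that were held by induced lists and not by EBs, progenitors or no Dox, 1 was held by more than 1 list. It lay between Hoxd13 and Hoxd12 at chr2:74673107-74673244, 1838 bp before the Hoxd12 TSS, with 138 bp in iHoxc6 and 107 bp in iHoxc10. The stretches shared by the lists that held these 3 intergenic or non-coding regions are printed from the plus strand of GRCm38, with the same marks.
HoxB, Gm53 exon, 5 lists, chr11:96261706-96261813: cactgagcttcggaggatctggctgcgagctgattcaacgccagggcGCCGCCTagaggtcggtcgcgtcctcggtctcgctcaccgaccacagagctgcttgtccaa
HoxC, Hoxc12 to Hoxc11, 4 lists, chr15:102943204-102943269: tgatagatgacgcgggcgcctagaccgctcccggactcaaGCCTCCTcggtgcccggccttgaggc
HoxD, Hoxd13 to Hoxd12, iHoxc6 and iHoxc10, chr2:74673121-74673227: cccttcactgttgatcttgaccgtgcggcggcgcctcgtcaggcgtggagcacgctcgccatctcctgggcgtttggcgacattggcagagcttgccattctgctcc
The HoxB and HoxC stretches hold 1 match to AGGNGGC each, and the HoxD stretch holds none of the letters searched.

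In windows of 300 bases around the centres of the 40 regions, AGGNGGC was found in 24 (60%) and TAAT in 16 (40%). TTTAT was found in 10 (25.0%). TGATTTAT, a joint motif of the Hox co-factor PBX and posterior Hox factors that contains TTTAT, was found in 1 (2.5%). Over the 218472 merged regions of the 6 lists with no undetermined base in the window the shares were 23.6% for AGGNGGC, 72.8% for TAAT, 50.5% for TTTAT and 2.06% for TGATTTAT. A longer form of the CTCF site, which contains the common part named above, was also searched. It was found in 1 (2.5%) of the 40 windows, beside 4.58% of the merged regions. The larger share in the 40 windows was thus seen for the short common part and not for the longer form. The windows of the 40 regions were richer in G and C, with a median of 60.3% beside 47.7%. The part of base composition in these shares was not tested.

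Along the clusters, the other Hox genes had another order of lists. In EBs, promoters of groups 11 to 13 were the most covered, at 16.3% of their length, beside 9.01% in groups 1 to 3, 11.3% in groups 4 and 5, 5.6% in groups 6 to 8, and 11.8% in groups 9 and 10. In progenitors, groups 11 to 13 were at 15.4%, beside 28.3%, 37.3%, 15.3% and 9.4%, so they were above groups 9 and 10. In no Dox, they were at 9.4%, beside 36.2%, 48.7%, 14.5% and 17.9%. In the induced lists they were at 5.25%, 1.74% and 4.45%, the lowest of the 5 sets in each. Summed over the 30 other Hox genes, the covered promoter length was 5571 bp in EBs, 13526 bp in progenitors, 17448 bp in no Dox, and 14341, 10302 and 17580 bp in iHoxc6, iHoxc9 and iHoxc10. For the 9 posterior genes the sums were 2927, 2781, 1692, 945, 313 and 802 bp. Hoxc5 had the same value as Hoxc10 in every list, and Hoxd3 the same as Hoxd4. The sums over the 30 genes thus count these values more than once, and the 30 promoters are not all separate.

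In no Dox, 23 of the 30 other Hox genes had more covered promoter length than in EBs, whereas 1 of the 9 posterior genes had more and 5 had less. In progenitors 2 of the 9 had more than in EBs and 4 had less, beside 21 of the 30 with more. In iHoxc6 1 of the 9 had more and 5 had less, beside 16 of the 30 with more. In iHoxc9 and iHoxc10, 0 of the 9 had more and 6 had less, beside 18 and 20 of the 30. Hoxa11, Hoxd11 and Hoxc12 had no promoter domain in any list and so could count as neither. The 30 include the pairs of genes with equal values named above. The share of all protein-coding genes with more or less than in EBs was not counted. A smaller covered length than in no Dox was general to the induced lists, but the counts here are against EBs. Whether they are particular to the 9 genes therefore cannot be said. With gene bodies and stretches included, groups 11 to 13 had the smallest covered share of the 5 sets in every list but EBs, where groups 1 to 3 had 2.91% and groups 11 to 13 had 3.2%. This order rests in part on the 74.0 kb gap between Hoxb13 and Hoxb9. Without it, groups 11 to 13 were at 5.1% in EBs, the highest of the 5 sets, at 4.04% in progenitors, above groups 9 and 10, and remained the lowest at day 4. The neighbouring groups 9 and 10 were at 3.29%, 3.91%, 5.22%, 3.68%, 2.03% and 3.73% over the 6 lists in the order used above. With 1 list per group, no difference between sets was tested. Domains on the induced Hoxc6, Hoxc9 or Hoxc10 exons may include transgene reads, which touches groups 6 to 8 and 9 and 10 and not the 9 genes. Groups 4 and 5 may be touched as well. The Hoxc5 promoter had the same covered length as the Hoxc10 promoter in every list, 605 bp in iHoxc10.

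**Figure D4:**
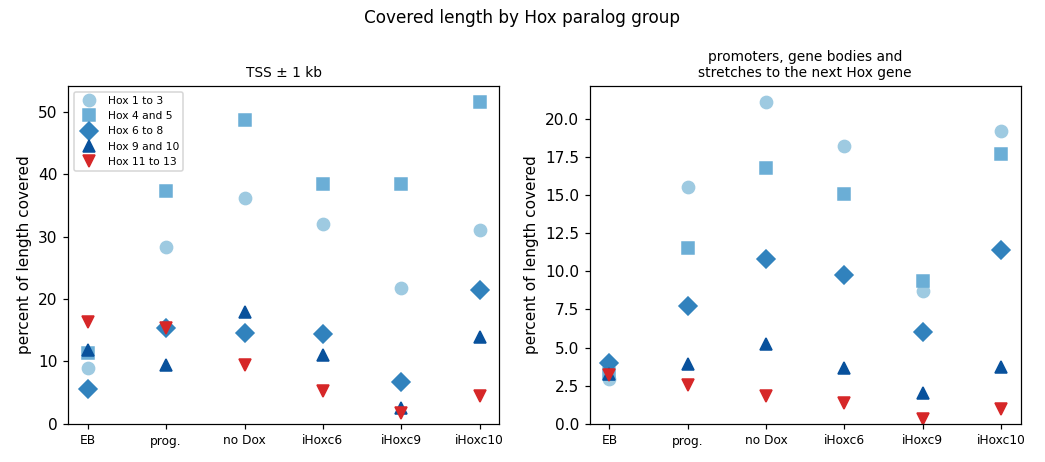
Percent of length covered by domains for 5 sets of Hox paralog groups in each list, over TSS ± 1 kb (left) and with gene bodies and stretches (right). Groups 11 to 13 (red triangles) start at 16.3% of promoter length in EBs, the highest of the 5 sets, and are the lowest in each induced list. The EB value comes mostly from Hoxc13 and Hoxd13.

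Genes that neighbour or regulate the posterior Hox genes were read in the same way. Cdx factors activate central and posterior Hox genes in the tail bud. Cdx2 had 861 covered promoter bp in EBs, 306 in progenitors, 44 in no Dox and none in the induced lists. Cdx1 had 349 bp in EBs and 60 bp in progenitors, and Cdx4 had 123 bp in EBs, with none in later lists. The 3 Cdx promoters were thus all shorter in progenitors than in EBs and absent from the induced lists.

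Gdf11, a signal that turns on posterior Hox genes in the trunk, had a promoter domain in all lists, with 1385, 1433, 1802, 975, 1233 and 1443 covered bp. Evx1 and Evx2, homeobox genes beside Hoxa13 and Hoxd13, were little covered. Evx2 had 26 bp in EBs and 70 bp in progenitors, and Evx1 had 42 bp in no Dox. The non-coding RNA genes Hotair and Hottip, which lie within HoxC and beside Hoxa13, had no promoter domain in any list.

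Patterns of presence were compared over all protein-coding genes. Having a promoter domain in EBs, progenitors and no Dox and none in the induced lists, as Hoxb13 and Hoxd13 did, was shared by 75 other genes besides each of them, or 0.342%. A domain in EBs only, as for Hoxc11 and Hoxd12, was shared by 668 other genes (3.05%). By distance over the 6 covered lengths, the non-Hox genes most like Hoxd13 were Tmem221 (103 bp) and Lamb1 (160 bp). Those most like Hoxc13 were Tmem189 (329 bp) and Slc18a3 (386 bp), the acetylcholine transporter gene of motor neurons, and those most like Hoxa13 were Oaf (115 bp) and Hist1h2ab (254 bp). Csn3 and 4930402F06Rik were nearest to Hoxb13, at 58.8 and 59.1 bp, Otud6a and Tmem102 to Hoxc11, at 1.0 and 2.0 bp, and Mlph and Npffr1 to Hoxd12, at 0 bp. Such distances rest on 6 values each and describe the covered length only.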

How the data were processed

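Accessible chromatin was read from 6 deposited BED lists, 1 for each group of 2 samples. Per the methods and the labels, the authors mapped reads to mm10 with Bowtie2 (2.2.2 in the submitters' processing notes, which also name Picard 2.8.2) and called domains with DomainFinder of SeqCode, and each list was made from both replicates. Settings of the caller are not given in the sources used here. The deposited values are start and end positions with no count, height or p-value, so the depth per sample is unknown. Whether starts count from 0 or from 1 is not given in the sources used here, so positions may be off by 1 bp. The name of the no Dox list carries another day than its label, and the label was used.

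Gene models were those of GENCODE M21 (GRCm38). A domain was assigned by an overlap of at least 1 bp, and covered bp were counted within TSS ± 1 kb, gene bodies and stretches. Percentiles, motif matches and merged regions were computed over all 6 lists with Python 3.11.15 and NumPy 2.4.6, and figures with Matplotlib 3.10.9. The overlap code was tested on simulated lists with known answers. No statistical test was run, since each group has 1 list. All 9 genes are named. Regions are described where 3 or more lists held them or where they were at least 500 bp wide, and the 2 nearest genes by Euclidean distance are given for genes with a domain. The region between Hoxd13 and Hoxd12 was chosen after its values were seen. The genes and lists were chosen with earlier results of these data known. The alternatives were a minimum width of 150 bp, lists cut to their 56232 widest domains, 50% of the domain inside, TSS ± 500 bp or ± 2 kb, and coding transcript starts. Leaving out the 1 kb before the next Hox gene, or the stretch from Hoxb13 to Hoxb9, was added after seeing the data.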

Additional observations from a re-analysis of the deposited data

Results flagged for a closer look

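The covered promoter length of Hoxa13 differed from no Dox in opposite directions between induced lines. It was larger by 172 bp in iHoxc6 and by 57 bp in iHoxc10, and it differed by -203 bp in iHoxc9, which gives a spread of 375 bp between lines. The difference was not tested, since each line has 1 list and all 3 were set against the same no Dox list. The iHoxc9 list also covered the least of the genome, 17.8 Mb beside 20.1 to 29.7 Mb in the other lists, and the part of this in the Hoxa13 value was not tested.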

How the results depend on the processing

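No paired analysis was possible because each list was made from both replicates of a group, and no replicate could be left out for the same reason. With domains of at least 150 bp only, the covered length in iHoxc9 was 220 bp in place of 567 bp. The number of domains was then 9 in EBs, 9 in progenitors and 5 in no Dox, and 6, 1 and 3 in iHoxc6, iHoxc9 and iHoxc10. The genes with a promoter domain were then 3 in EBs, 2 in no Dox and 1 in iHoxc9. The share of all genes with a promoter domain was 54.1% to 60.8% under this width. With lists cut to their 56232 widest domains, the number of domains was 13 in EBs, 11 in progenitors and 9 in no Dox. With TSS ± 2 kb, 4 genes had a promoter domain in iHoxc6 in place of 2. Each of the shifts above follows from the domains that the setting removes or adds. The other totals over the 9 genes (domains, covered length and genes with a promoter domain, per list) kept within 1.5 times the reported value under every alternative computed. Values of single genes moved more, as given with Hoxb13, Hoxd13 and Hoxd11. Without the stretch from Hoxb13 to Hoxb9, which was left out after seeing the data, the covered share of groups 11 to 13 was 5.1% in EBs, 4.04% in progenitors and 2.81% in no Dox, and 2.16%, 0.588% and 1.55% in iHoxc6, iHoxc9 and iHoxc10. The counts rest on narrow domains, and the read depth of each list is unknown.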
